A study of Arabidopsis thaliana with 72 samples.

Results

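The GH3 genes of Arabidopsis encode acyl acid amido synthetases, enzymes that join a plant hormone to an amino acid. Members of the branch described here act mainly on indole-3-acetic acid (IAA), the main natural auxin. Conjugation to aspartate or glutamate takes IAA out of the active pool, and several of these genes are themselves switched on by auxin through auxin response factors, so they are used as markers of auxin signalling and as one arm of its feedback.

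The probe sets of 4 genes, 4 of the 17266 tested and of 22746 on the array beside its controls, were followed over all 36 groups of the series: GH3.1 (AT2G14960, probe set 266611_at), GH3.3 (AT2G23170, 245076_at), WES1, also called GH3.5 (AT4G27260, 253908_at), and GH3.17 (AT1G28130, 259596_at). They were chosen by name and each locus had 1 probe set. All 4 are IAA-amido synthetase genes, WES1 being known also to act on salicylic acid in vitro and GH3.17 to favour glutamate.

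Whole seedlings, 7 days old and kept at 22 °C, were hybridised to 72 Affymetrix ATH1 arrays, 2 for each group. Col-0 seedlings were taken 30 min, 1 h and 3 h after mock treatment, after 1 µM IAA, zeatin (a cytokinin) or gibberellin A3 (GA3), after 10 µM abscisic acid (ABA), methyl jasmonate (MJ) or the ethylene precursor ACC, or after 10 nM brassinolide (BL). The gibberellin-deficient mutant ga1-5 received mock or 1 µM GA3 and the brassinosteroid-deficient mutant det2-1 received mock or 10 nM BL, at the same 3 times. IAA was applied in Col-0 only. The arrays of one genotype and one time formed a lettered set, so comparisons between times or genotypes are also comparisons between the 9 sets. Because doses differ, sizes of response do not rank the hormones. Nothing in the labels ties the replicates to separate cultures, so p-values reflect only array-to-array spread, possibly technical. Only 2 arrays a group limit the precision.

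Values are MAS5 signal scaled so that all arrays share one trimmed mean, in arbitrary units. Changes are differences of log2(signal + 55), a scale on which changes of dim genes such as GH3.1 are understated, and a call is an adjusted p under 0.05 in limma, Benjamini-Hochberg adjusted over all tested probe sets of the comparison. Levels of different probe sets are not compared. In whole seedlings, a change in the number of cells that express a gene and a change in RNA per cell cannot be told apart. Of 8 genes listed as markers of green tissue, RCA and PSAN had a tested probe set, PSAN lying between 10512 and 28732 and RCA between 27 and 38996, with the lowest RCA value in det2-1 under BL at 30 min. The one tested root marker of 9 listed, EXPA7, was between 389 and 2070.

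IAA raised GH3.1, GH3.3 and WES1 and left GH3.17 without a call. GH3.3 responded by 12.6-fold at 30 min and by about 40.3-fold at 1 h, WES1 climbed from 2.65-fold to 12.6-fold between 30 min and 3 h, and the dim GH3.1 reached 9.30-fold at 3 h. Of the 4 genes, 2 rose at 30 min, 3 at 1 h and 3 at 3 h, where 0.475%, 0.724% and 1.72% of all tested probe sets rose. The members' median log2 changes were 1.61, 2.36 and 3.44, beside medians of all tested probe sets no further than 0.01 from 0.

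**Figure D1:**
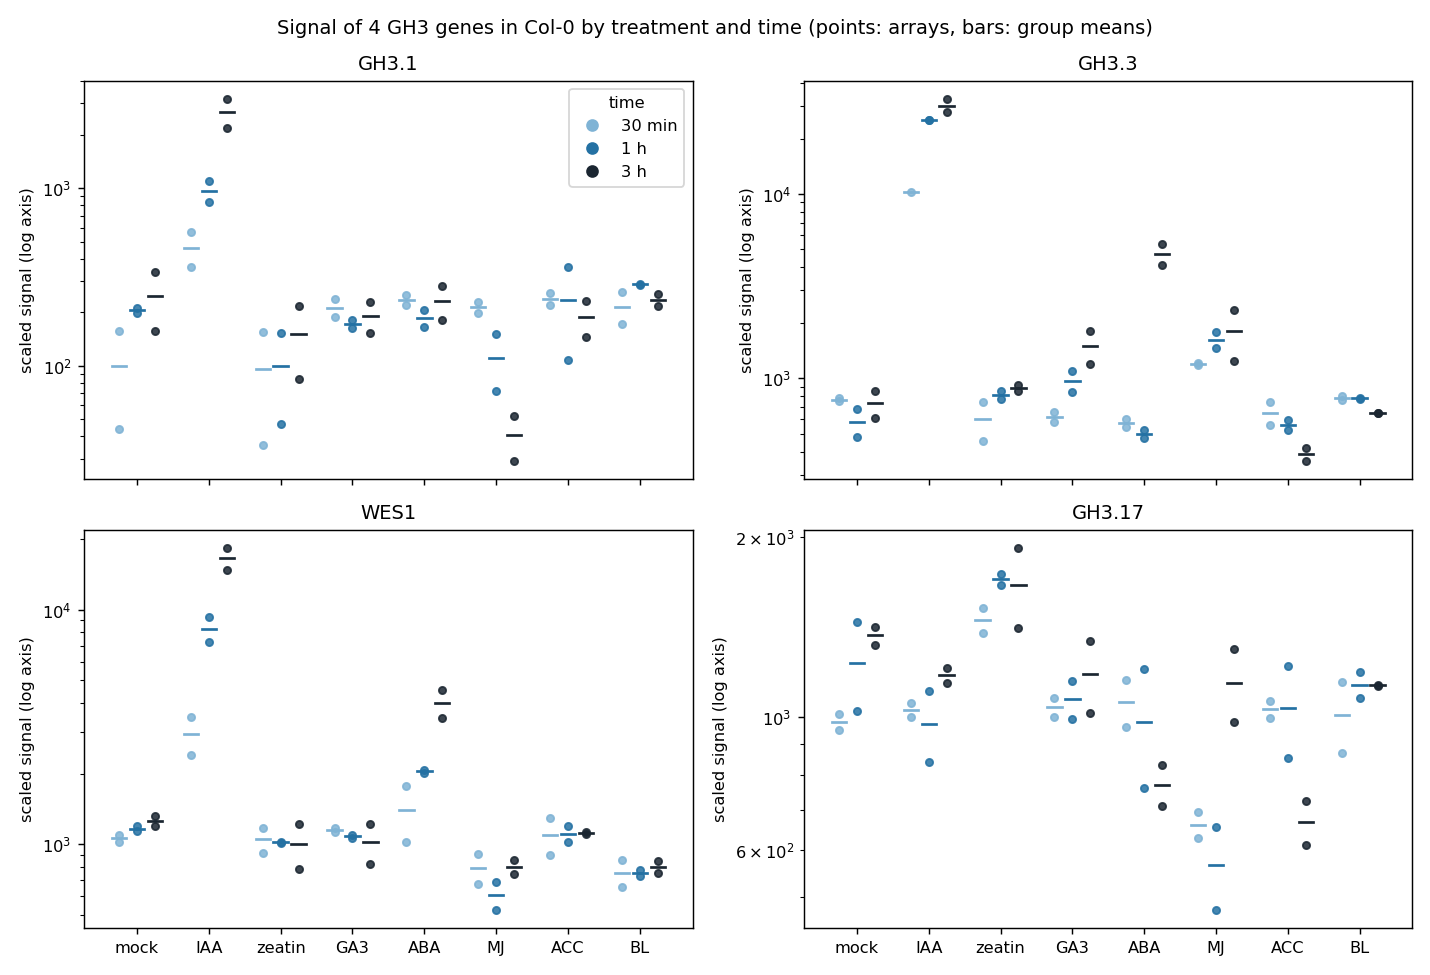
Scaled signal (log axis, arbitrary units) of GH3.1, GH3.3, WES1 and GH3.17 in Col-0 for mock and 7 hormones, with a point for each array, a bar for each group mean and shades for 30 min, 1 h and 3 h. At each time the IAA arrays stand above the others of that time for GH3.1, GH3.3 and WES1, the ABA arrays at 3 h come next for GH3.3 and WES1, and GH3.17 stays between 476 and 1919 under every treatment.

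GH3.3 gave 752 and 780 in the mock arrays at 30 min, 483 and 681 at 1 h, and 858 and 611 at 3 h. In IAA arrays it gave 10286 at 30 min, 25328 and 25201 at 1 h, and 32703 and 27702 at 3 h. The second IAA array at 30 min held impossible intensities in stretches that include this probe set, so the 30 min value rests on 1 treated array. The treated arrays lay above every mock array at each time, and no other array of the series exceeded 5380.

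The log2 change of GH3.3 was 3.66 (SE 0.31, limma adjusted p = 6.3e-11) at 30 min, 5.33 (SE 0.25, adjusted p = 1.48e-19) at 1 h and 5.27 (SE 0.25, adjusted p = 2.25e-19) at 3 h. The response at 3 h was larger than at 30 min by 1.62 (SE 0.40, limma adjusted p = 0.0392), a comparison in which 0.278% of tested probe sets had a larger rise or smaller fall. That call ended under 7 of the 10 other settings, among them the deposited scale (1.41, adjusted p = 1) and quantile normalization (1.25, adjusted p = 0.215), and without any one of mock 30 min replicates 1 and 2, IAA 30 min replicate 2, mock 3 h replicate 2 and IAA 3 h replicates 1 and 2 (adjusted p between 0.053 and 0.193). Between 1 h and 3 h the difference was -0.06 (95% interval -0.78 to 0.66, adjusted p = 0.999).

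WES1 gave 1025 and 1091 in mock at 30 min, 1135 and 1196 at 1 h, and 1313 and 1200 at 3 h. With IAA it gave 3493 and 2399, then 9273 and 7243, then 18339 and 14722. Each pair of IAA arrays was above its mock pair, and the pairs themselves stepped upward without overlap.

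Its log2 changes were 1.41, 2.76 and 3.65 (SE 0.21 each, limma adjusted p = 3.5e-05, 6.07e-13 and 5.01e-17). On the deposited scale the 30 min call ended (1.39, adjusted p = 0.0762). The response of WES1 at 3 h exceeded that at 30 min by 2.25 (SE 0.30, adjusted p = 1.06e-05), and this call ended on the deposited scale (adjusted p = 0.0672). Neither step between neighbouring times was called, at 1.35 from 30 min to 1 h (adjusted p = 0.374) and 0.90 from 1 h to 3 h (adjusted p = 0.321).

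GH3.1 was dim in mock seedlings, at 44 and 156 at 30 min, 212 and 199 at 1 h, and 157 and 338 at 3 h. With IAA it gave 565 and 360, then 1097 and 836, then 3169 and 2181. All IAA arrays lay above the mock arrays of their time, and the 30 min mock pair was itself widely spread.

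The log2 change of GH3.1 was 1.81 at 30 min (SE 0.47, limma adjusted p = 0.0776), not a call. It was one with the replicate number as a block (adjusted p = 0.031) and with a 50% pseudocount (0.98, adjusted p = 0.0318). At 1 h it was 1.96 (adjusted p = 0.0233) and at 3 h 3.22 (adjusted p = 7.59e-06). The 1 h call ended without any one of its 4 arrays (adjusted p from 0.0921 to 0.242) and under 5 settings, with adjusted p of 0.131 on the deposited scale, 0.0582 with medians, 0.0604 with quantiles, 0.122 with a 2% pseudocount and 0.0917 with only the arrays of the set. In the main fit no difference of GH3.1's IAA response between times was called. With the 50% pseudocount the response at 3 h exceeded that at 30 min by 1.52 (limma adjusted p = 0.011).

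GH3.17 gave 1012 and 952 in mock and 1055 and 999 with IAA at 30 min. At 1 h the pairs were 1444 and 1022 against 842 and 1105, and at 3 h 1322 and 1416 against 1142 and 1206. The pairs overlapped at 30 min and 1 h, and at 3 h the IAA pair was the lower. Its log2 changes were 0.06, -0.32 and -0.21 (SE 0.20, limma adjusted p = 1, 0.913 and 0.798), with 95% intervals of -0.33 to 0.46, -0.71 to 0.08 and -0.61 to 0.18. These intervals hold no rise above 0.46 at any time, while the lowest bound of GH3.3 was 3.03 and that of WES1 0.99.

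**Figure D2:**
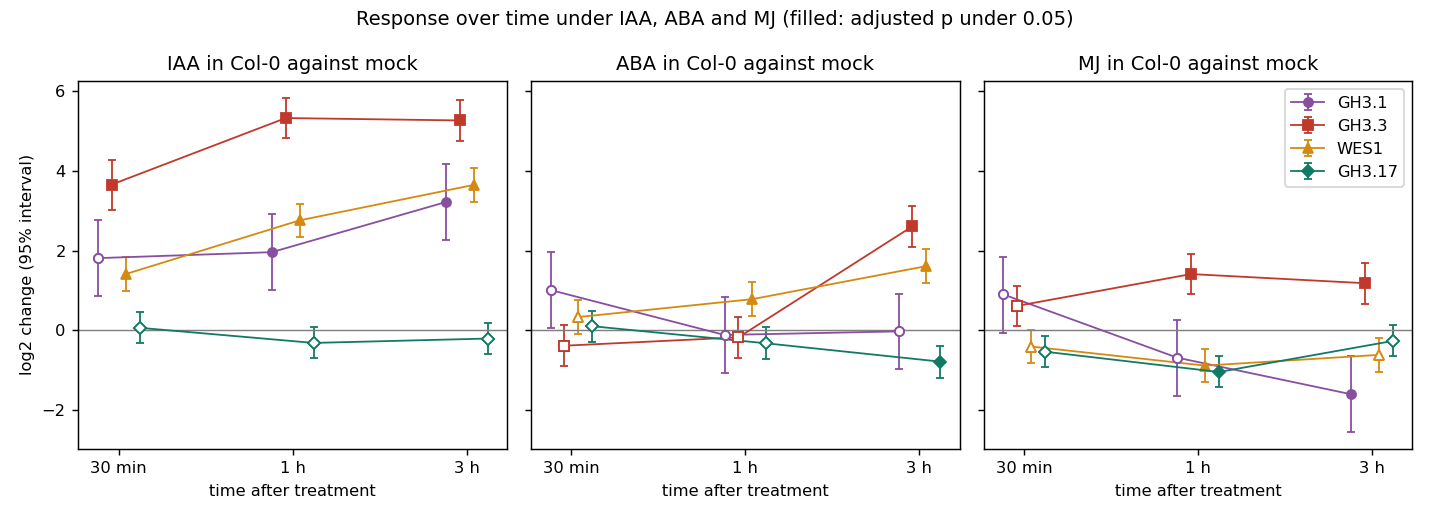
Log2 change against mock (95% interval) of the 4 genes at 30 min, 1 h and 3 h under IAA, ABA and MJ, with filled points for adjusted p under 0.05. Under IAA GH3.3 sits at 3.66, 5.33 and 5.27 and WES1 rises from 1.41 to 3.65, under ABA GH3.3 is near 0 until 3 h and then at 2.61, and under MJ the genes go in opposite directions.

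ABA raised GH3.3 and WES1 by 3 h and lowered GH3.17. Of the 4 genes 2 rose and 1 fell at 3 h, when 10.1% of tested probe sets rose and 16.8% fell, and 1 rose at 1 h, when 2.02% rose. At 30 min none was called by limma (1 at an unadjusted p under 0.05, GH3.1), with 0.313% called in either direction. The median of all tested probe sets was -0.16 at 3 h and that of the members 0.79.

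GH3.3 gave 605 and 541 under ABA at 30 min, 524 and 476 at 1 h, and 4122 and 5380 at 3 h. The first pair was below its mock pair, the second overlapped it and the third was far above. Its log2 changes were -0.39, -0.18 and 2.61 (SE 0.25), the last with an adjusted p of 4.43e-11 in limma.

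The ABA response of GH3.3 at 3 h was larger than at 1 h by 2.79 (SE 0.36, limma adjusted p = 4.88e-07) and than at 30 min by 3.00 (adjusted p = 3.9e-08). Rises of that kind were called for 5.56% of tested probe sets between 3 h and 30 min and for 3.77% between 3 h and 1 h. These tests between times under hormones other than IAA were added after values had been seen.

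WES1 gave 1771 and 1020 under ABA at 30 min, 2014 and 2078 at 1 h, and 3435 and 4518 at 3 h. It overlapped mock at 30 min and was above it afterwards. The log2 changes were 0.33 (limma adjusted p = 0.977), 0.78 (adjusted p = 0.0258) and 1.61 (SE 0.21, adjusted p = 5.66e-08). At 1 h the call ended without any one of the 4 arrays (adjusted p from 0.128 to 0.177), on the deposited scale (0.793) and with medians (0.052).

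The response of WES1 was larger at 3 h than at 30 min by 1.28 (SE 0.30, limma adjusted p = 0.00222). Without ABA 30 min replicate 2, the lower of that pair, it was 0.89 and not called (adjusted p = 0.0573), nor was it on the deposited scale (adjusted p = 0.191).

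GH3.17 gave 710 and 832 under ABA at 3 h, below both mock arrays. Its log2 change of -0.79 (SE 0.20, limma adjusted p = 0.00179) was not called on the deposited scale (adjusted p = 0.056). At 30 min and 1 h the changes were 0.10 and -0.33 without a call. The 3 h change was lower than that at 30 min by -0.89 (SE 0.28, adjusted p = 0.0268), as for 6.89% of probe sets, a call that ended on the deposited scale (0.31), with medians (0.125), with quantiles (0.0524) and without mock 30 min replicate 1 or 2, ABA 30 min replicate 2, mock 3 h replicate 2 or ABA 3 h replicate 1 (adjusted p from 0.0506 to 0.12). GH3.1 under ABA gave 282 and 182 at 3 h, overlapping mock, with a log2 change of -0.03 (95% interval -0.98 to 0.92).

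At matched times the IAA groups of GH3.3 and WES1 stayed above the ABA groups, at different doses. At 3 h the differences were 2.66 for GH3.3 (limma adjusted p = 2.29e-11) and 2.04 for WES1 (adjusted p = 1.41e-10).

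MJ split the genes. GH3.3 rose at 1 h and 3 h, GH3.17 and WES1 fell at 1 h, and GH3.1 fell at 3 h. That made 1 rise and 2 falls at 1 h, against 3.5% of tested probe sets that rose and 2.02% that fell, and 1 of each at 3 h, against 3.87% and 3.96%. At 30 min none was called (2 at an unadjusted p under 0.05, GH3.3 and GH3.17), beside 1.81% of probe sets.

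GH3.3 gave 1180 and 1218 under MJ at 30 min, 1458 and 1779 at 1 h, and 1244 and 2346 at 3 h, each pair above its mock pair. Its log2 changes were 0.61 (limma adjusted p = 0.394), 1.41 (adjusted p = 0.000103) and 1.18 (SE 0.25, adjusted p = 0.00103). The 3 h call ended when mock 3 h replicate 2 was dropped (0.95, adjusted p = 0.0566) or MJ 3 h replicate 2 (0.74, adjusted p = 0.141).

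GH3.17 gave 656 and 476 under MJ at 1 h, the latter its lowest array in the series. Both lay below the mock pair, and the log2 change was -1.05 (SE 0.20, limma adjusted p = 0.000196). It was -0.54 at 30 min and -0.27 at 3 h without a call, and the return of 0.78 from 1 h to 3 h was not called either (adjusted p = 0.356).

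WES1 gave 525 and 690 under MJ at 1 h, below mock, with a log2 change of -0.89 (SE 0.21, limma adjusted p = 0.00364). That call ended on the deposited scale (adjusted p = 0.296) and when mock 1 h replicate 2 was left out (0.0564) or MJ 1 h replicate 1 (0.156). At 3 h WES1 was at 747 and 857, again below mock, with -0.62 (adjusted p = 0.0617).

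GH3.1 gave 52 and 29 under MJ at 3 h, below both mock arrays and among its lowest. The log2 change of -1.61 (SE 0.47, limma adjusted p = 0.0241) lost its call when mock 3 h replicate 2 was left out (adjusted p = 0.31), likewise MJ 3 h replicate 1 (0.0578) or MJ 3 h replicate 2 (0.164), and also on the deposited scale (0.149), with medians (0.094), with quantiles (0.0661) or with a 50% pseudocount (0.0561).

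**Figure D3:**
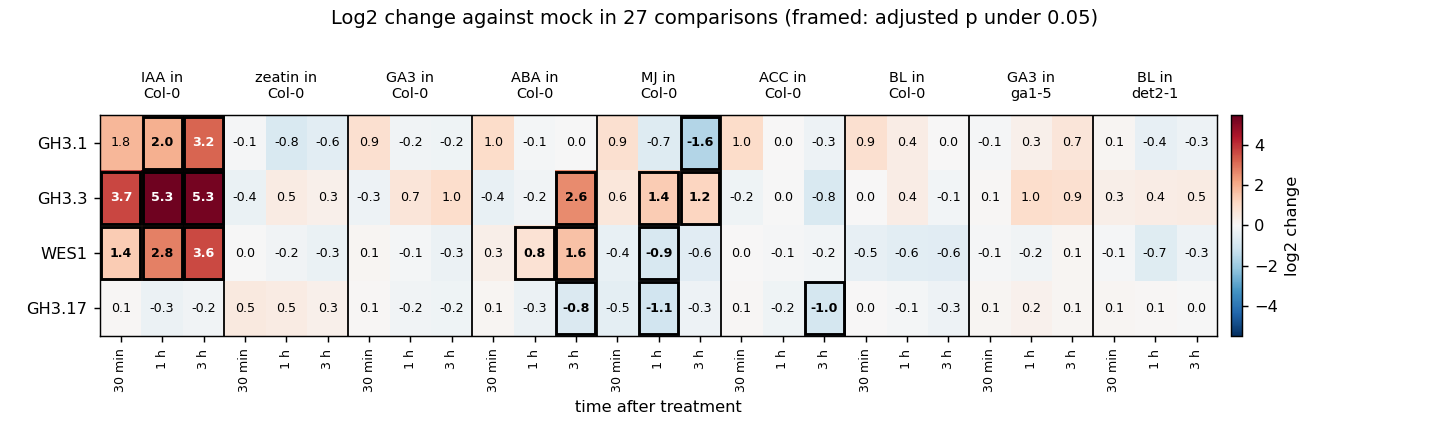
Log2 change against mock (colour and printed value, 1 decimal) of the 4 genes in the 27 comparisons of a hormone with the mock of its genotype and time, framed where the adjusted p is under 0.05. Over these comparisons GH3.3 has 6 rises, WES1 5 rises and 1 fall, GH3.1 2 rises and 1 fall, and GH3.17 3 falls and no rise.

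ACC lowered GH3.17 at 3 h. This was 1 fall among the 4 genes, beside 0.434% of tested probe sets that fell. GH3.17 gave 611 and 723 against 1322 and 1416 in mock, without overlap, a log2 change of -0.98 (SE 0.20, limma adjusted p = 0.00394). ACC 3 h replicate 1 had a deposited trimmed mean of 1160, the value of the replicate 1 arrays of Col-0 at 30 min and 1 h, where the other replicate 1 arrays of its set had 1050.

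Leaving that array out, the GH3.17 change was -0.87 and not called (adjusted p = 0.108). Nor was it called with mock 3 h replicate 2 left out (0.0755), on the deposited scale (0.412) or with only the arrays of the set (0.0939). GH3.3 under ACC at 3 h gave 355 and 420, below mock, with -0.82 (adjusted p = 0.146). At 30 min and 1 h no gene of the 4 was called by limma, beside 0.0405% and 0.191% of probe sets, with 1 (GH3.1 at 30 min) and 0 at an unadjusted p under 0.05.

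Zeatin, BL and GA3 gave no call for any of the 4 genes at single times in limma. For zeatin in Col-0 0.168%, 0.434% and 1.27% of tested probe sets were called at 30 min, 1 h and 3 h. GH3.17 stood highest of all treatments under zeatin at each time, with 1523 and 1381, then 1664 and 1734, then 1919 and 1411. These pairs were above mock at 30 min and 1 h and overlapped it at 3 h, and the log2 changes were 0.54, 0.47 and 0.26 (adjusted p = 1, 0.555 and 0.753). GH3.17 was the 1 gene at an unadjusted p under 0.05 at 30 min and at 1 h, and there was none at 3 h.

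BL had 0.133%, 0.973% and 1.55% of probe sets called in Col-0 at the 3 times. WES1 gave 657 and 854, 777 and 732, and 757 and 848 under BL, each pair below its mock pair. The log2 changes of -0.47, -0.59 and -0.61 (SE 0.21) had adjusted p of 0.347, 0.144 and 0.167, and WES1 was the 1 gene at an unadjusted p under 0.05 at each time.

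Over the 3 times together, WES1 passed under BL (limma moderated F, adjusted p = 0.0246), a test that 3.65% of probe sets passed. It did not pass on the deposited scale (adjusted p = 0.901), with only the arrays of the sets (0.0858) or without any one of BL 30 min replicate 1, mock 1 h replicate 2, BL 1 h replicate 1, mock 3 h replicate 1 and BL 3 h replicate 1 (adjusted p from 0.0511 to 0.0661). In det2-1, where BL gave 0.029%, 0.376% and 4.47% of probe sets as calls, WES1 gave 698 and 908 with BL at 1 h against 1111 and 1479 in mock, a log2 change of -0.65 (adjusted p = 0.327), the 1 unadjusted p under 0.05 among the 4 genes over the 3 times. In BL-treated det2-1 seedlings 1 of the 2 tested green markers, RCA, fell at 30 min and 3 h (-4.18 and -2.39, limma adjusted p = 0.00338 and 0.029). The other, PSAN, was not called at these times, and neither marker was called at 1 h. The part of RCA in the result was not tested. The response of WES1 to BL did not pass the test of a difference between det2-1 and Col-0 at any time (differences 0.39, -0.06 and 0.32, adjusted p = 0.835, 0.98 and 1).

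GA3 in Col-0 had 0%, 0% and 0.0405% of probe sets called. GH3.3 gave 838 and 1090 at 1 h and 1191 and 1814 at 3 h, above mock at both times, with log2 changes of 0.68 and 0.97 (SE 0.25, limma adjusted p = 1 and 0.256), and it was the 1 gene with an unadjusted p under 0.05 at these times (none at 30 min). With the replicate number as a block the 3 h change was called (adjusted p = 0.0285).

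In ga1-5, where GA3 gave 0.00579%, 0.0463% and 0.145% of probe sets as calls, GH3.3 gave 786 and 749 against 360 and 370 at 1 h, and 1166 and 867 against 592 and 441 at 3 h. Both pairs lay above mock. The log2 changes were 0.97 and 0.90 (limma adjusted p = 0.245 and 0.236), and GH3.3 was again the 1 gene at an unadjusted p under 0.05 at each of these times (none at 30 min). The ga1-5 response of GH3.3 minus that of Col-0 was 0.37, 0.28 and -0.06 with intervals that include 0 (-0.35 to 1.09, -0.44 to 1.00 and -0.78 to 0.66). None of the 4 genes was called in either test of a mutant's response against that of Col-0 by limma, nor had an unadjusted p under 0.05. Of all probe sets 0.0579%, 0.029% and 0.0521% were called in the test of BL and 0%, 0.00579% and 0% in that of GA3.

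Among the 8 Col-0 treatments at one time, few neighbours in the order of levels differed by a call. For GH3.3 IAA differed from the next group, MJ, at 30 min and 1 h (3.04 and 3.93 on the log2 scale, limma adjusted p = 1.22e-09 and 1.15e-15), and at 3 h the order IAA, ABA, MJ had calls at both steps (2.66 and 1.43, adjusted p = 2.29e-11 and 1.52e-05). For WES1 ABA followed IAA at every time, with differences of 1.07, 1.97 and 2.04 (adjusted p = 0.00167, 2.78e-09 and 1.41e-10), and mock came next at 1 h and 3 h, below ABA by 0.78 and 1.61. For GH3.1 only the step from IAA to BL at 3 h was called (3.21, adjusted p = 3.87e-06).

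For GH3.17 no neighbours were called at 30 min. At 1 h MJ was below ABA (0.72, limma adjusted p = 0.012), and at 3 h ABA was below MJ (0.52, adjusted p = 0.0403), with ACC lowest. No other neighbours in these orders were called, which does not show that they were equal. For some of these uncalled steps the whole interval lay above no difference. GH3.1 from IAA to BL at 1 h was such a step (1.57, interval 0.62 to 2.52, limma adjusted p = 0.0504). For most of the uncalled steps the interval included no difference. These 63 comparisons between hormones had wide backgrounds, with calls in either direction for 2.51% and 7.13% of probe sets between IAA and MJ at 30 min and 1 h, 0.846%, 4.79% and 29.3% between IAA and ABA at the 3 times, 6.59% between IAA and BL at 3 h, and 7.92% and 28.3% between ABA and MJ at 1 h and 3 h.

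Untreated mutants differed from Col-0 at several of these genes on the scaled values. Over the mean of the 3 times, 2 of the 4 genes rose and 1 fell in ga1-5, beside 22.5% and 19.9% of tested probe sets, and 2 fell in det2-1, beside 13.8%. These shares are large, so counts of this size are not particular to the members. Genotype and set cannot be told apart.

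The deposited trimmed means were 865 to 1164 in Col-0 and 1827 to 2970 in the mutants. Without the rescaling the median of all probe sets was above 0 by 1.23 for ga1-5 and 1.05 for det2-1 against Col-0, while on the scaled values it was 0.05 and 0.04. The directions given here are therefore relative to the bulk of the probe sets, and several turn on the deposited scale. Signal of green markers also differed, at 38743 to 54570 for RCA and PSAN together in Col-0 mock, 17060 to 26331 in ga1-5 mock and 14783 to 25512 in det2-1 mock. The root marker EXPA7 was at 572 to 1108, 451 to 641 and 406 to 1591 in the same order (-0.56 in ga1-5 against Col-0, limma adjusted p = 0.101). The part of either in the results was not tested.

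GH3.17 separated the mutants. Over the 6 mock arrays of each genotype its lowest, median and highest values were 952, 1172 and 1444 in Col-0, 1341, 1543 and 1723 in ga1-5, and 565, 687 and 838 in det2-1. The det2-1 arrays lay below all others, and the ga1-5 arrays overlapped only the upper Col-0 arrays. At each single time the ga1-5 pair was above the Col-0 pair.

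Against Col-0 the log2 change of GH3.17 was 0.38 in ga1-5 (SE 0.11, limma adjusted p = 0.00613) and -0.71 in det2-1 (SE 0.11, adjusted p = 3.89e-06), the latter 0.31 on the deposited scale, where it was not called (adjusted p = 0.0638). Between the mutants it was 1.09 (SE 0.11, adjusted p = 1.37e-10), and 1.25, 1.25 and 0.77 at the single times, each called. Of all probe sets 18.4% were higher in ga1-5 over the mean, and 8.31%, 10.2% and 7.93% at the single times. On the deposited scale the median of all probe sets between the mutants was 0.19 over the mean and 0.02, 0.45 and 0.12 at the single times.

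Under hormone the mutants kept their places, with GH3.17 at 1341 to 2195 over all 12 ga1-5 arrays and 524 to 838 over all 12 det2-1 arrays. Neither GA3 nor BL gave it a call, with changes of 0.10, 0.22 and 0.12 under GA3 in ga1-5 and 0.11, 0.07 and -0.04 under BL in det2-1.

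GH3.3 gave 483, 716 and 858 as lowest, median and highest in Col-0 mock, 360, 424 and 704 in ga1-5, and 332, 423 and 537 in det2-1. The mutants' medians were the lower, and their ranges over all times overlapped that of Col-0, although within each time the mutant pair was below the Col-0 pair. The log2 changes were -0.50 (SE 0.15, limma adjusted p = 0.00436) and -0.65 (adjusted p = 0.000665), and on the deposited scale 0.67 (adjusted p = 0.0009) and 0.34 (adjusted p = 0.0803). The mutants did not differ from each other by a call (0.14, 95% interval -0.15 to 0.44).

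WES1 was at 1025 to 1313 in Col-0 mock, 1138 to 1719 in ga1-5 and 1111 to 1479 in det2-1, ranges that overlap. It was higher in ga1-5 by 0.35 (SE 0.12, limma adjusted p = 0.0173), a call lost without ga1-5 mock 1 h replicate 2 (adjusted p = 0.0506) or mock 3 h replicate 2 (0.0543). In det2-1 the change was 0.07 (95% interval -0.17 to 0.32).

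GH3.1 was at 44 to 338, 36 to 226 and 156 to 470 in Col-0, ga1-5 and det2-1 mock. The ga1-5 pair was below the det2-1 pair at 30 min and 3 h. At 1 h it was above, at 210 and 226 against 179 and 168. The one call over the mean of the times was between the mutants, with ga1-5 lower (-0.71, SE 0.27, limma adjusted p = 0.0385) beside 16.6% of probe sets lower there. It ended on the deposited scale (adjusted p = 0.0958), with quantiles (0.0585), with only the arrays of the sets (0.056) and without any one of 8 arrays, ga1-5 mock 30 min replicate 2, ga1-5 mock 1 h replicates 1 and 2, ga1-5 mock 3 h replicate 2, det2-1 mock 30 min replicate 2, det2-1 mock 1 h replicates 1 and 2 and det2-1 mock 3 h replicate 1 (adjusted p from 0.0601 to 0.198). In mock seedlings none of the 4 genes differed between times in any genotype by the moderated F in limma (adjusted p at least 0.779, with 1 unadjusted p under 0.05, GH3.1 in ga1-5). That test passed 0.0116%, 0.029% and 0.0811% of probe sets in Col-0, ga1-5 and det2-1.

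**Figure D4:**
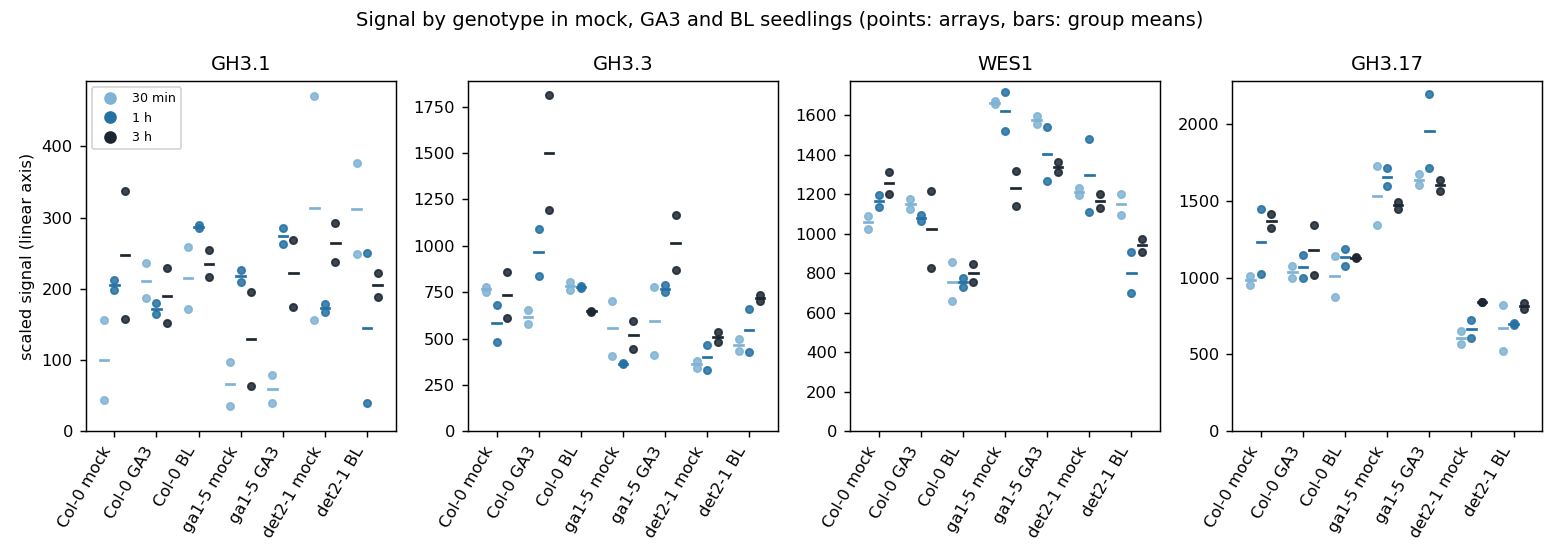
Scaled signal (linear axis from 0, arbitrary units) of the 4 genes in Col-0 with mock, GA3 or BL, in ga1-5 with mock or GA3 and in det2-1 with mock or BL, with a point for each array, a bar for each group mean and shades for the 3 times. GH3.17 is at 1341 to 2195 in ga1-5 and at 524 to 838 in det2-1, and GH3.3 under GA3 at 1 h and 3 h is above mock in both Col-0 and ga1-5.

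The 3 genes that rose under IAA were correlated over the groups as long as the IAA groups were included. Over the 36 group means of log2 signal, Pearson's r was 0.67 for GH3.1 with GH3.3, 0.74 for GH3.1 with WES1 and 0.78 for GH3.3 with WES1. Without the 3 IAA groups these values were -0.13, 0.11 and 0.11. GH3.17 had r of -0.13, -0.02 and 0.10 with the others over all groups. By rank, the pair GH3.3 and WES1 had Spearman's rho of -0.11 over all groups and -0.44 without IAA, against Pearson's 0.78 and 0.11, and the pairs of GH3.1 had rho of 0.12 with GH3.3 and 0.34 with WES1 over all groups. These are descriptions, and hormone groups of one set stand beside the same mock arrays.

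By the highest r over the 36 groups, the genes most like GH3.3 were LBD29 (0.83), a regulator of lateral root formation, the homeodomain-leucine zipper gene HAT2 (0.82), AT2G23060 (0.82), and the Aux/IAA repressor genes IAA30 (0.82) and IAA29 (0.80). These 5 were chosen for following GH3.3, itself raised by IAA, so the same rise in them is no separate result. Under IAA LBD29 changed by 3.29, 4.54 and 3.98 on the log2 scale and HAT2 by 3.24, 3.21 and 2.73. At 3 h of ABA, where GH3.3 was at 2.61, LBD29 was at 0.31, HAT2 at 0.67, AT2G23060 at -0.31, IAA30 at 1.03 and IAA29 at -0.64. Under MJ at 1 h GH3.3 was at 1.41 and these genes, in the same order, at -0.56, -0.93, -0.53, -0.20 and -0.05. Without the IAA groups r with GH3.3 was -0.05 for LBD29, 0.18 for HAT2, 0.44 for AT2G23060, 0.39 for IAA30 and -0.19 for IAA29.

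Those most like GH3.1 were IAA29 (0.84), AT4G17350 (0.79), AT3G51410 (0.77), ATIM (0.75) and P1R3 (0.75), with r from 0.29 to 0.48 when the IAA groups were left out. Of these 5, chosen for following GH3.1, IAA29, AT4G17350, AT3G51410 and ATIM had their largest IAA change at 3 h (3.94, 2.89, 2.55 and 1.05 on the log2 scale), while P1R3 was at 1.57, 1.71 and 1.55 over the times.

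WES1 was nearest to AT5G64250, with r of 0.84 over 36 groups and 0.76 over the 33 without IAA. That locus changed by 0.96 under IAA and 0.85 under ABA at 3 h, where WES1 changed by 3.65 and 1.61. It was chosen for following WES1, so changes in the same direction are no separate result. The next were IAA30 (0.81), LBD29 (0.80), IAA29 (0.79) and GH3.3 (0.78), with r between -0.21 and 0.25 without IAA.

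For GH3.17 they were AT4G29020 (0.77), AT5G06330 (0.76), AT1G02360 (0.76), UGT72E2 (0.76), a glycosyltransferase gene of phenylpropanoid metabolism, and AT3G01410 (0.75). Leaving IAA out changed r little (0.75 to 0.79), whereas within the 24 Col-0 groups it was 0.37, 0.55, 0.39, 0.65 and 0.41. These 5 were chosen for following GH3.17, itself higher in ga1-5 than in det2-1, so the same difference in them is no separate result. All 5 stood higher in ga1-5 than in det2-1 mock, AT3G01410 least (0.69 on the log2 scale) and AT1G02360 most. AT4G29020, AT5G06330 and UGT72E2 were at 0.91, 1.03 and 1.07.

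**Figure D5:**
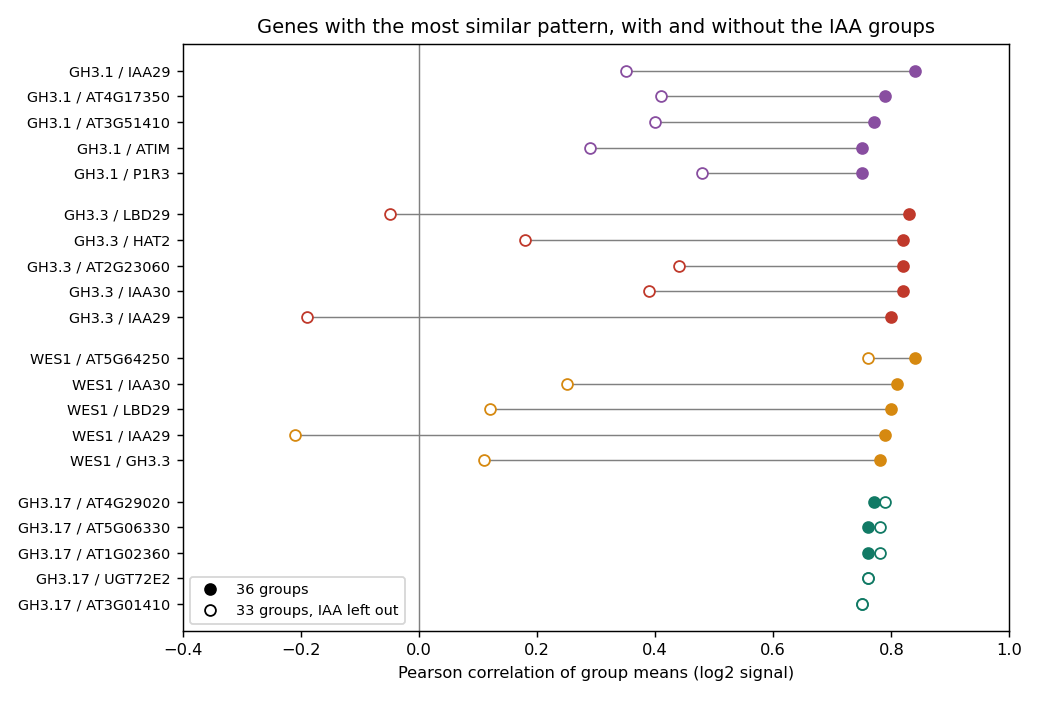
Pearson correlation of log2 group means between each of the 4 genes and the 5 genes most like it, over 36 groups (filled) and over 33 groups without IAA (open). Without IAA the values for GH3.1 and GH3.3 drop to 0.48 and below, those for WES1 drop except with AT5G64250 (0.76), and those for GH3.17 stay between 0.75 and 0.79, with open points covering filled ones where both are equal.

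Of the 19 loci on the GH3 family list 11 had a probe set naming them here and 8 were tested. Beside the 4 genes these were GH3.9, AT5G13350, AT1G48670 and AT1G48660, placed on the list by locus. Of the 8, 2 rose at 30 min of IAA and 3 at 1 h and 3 h, all among the 4 genes described. Of all tested probe sets 0.475%, 0.724% and 1.72% rose at these times. Over the IAA time course GH3.9, AT5G13350, AT1G48670 and AT1G48660 had adjusted p of 0.758, 1, 0.845 and 1 by the moderated F. In Col-0, the only genotype given IAA, AT1G48670 was at 11 to 270 and AT1G48660 at 5 to 210. Both passed the filter on dim signal through mutant arrays, so their missing calls under IAA cannot show a lack of response. Of the other family loci AT1G23160, AT5G51470 and AT5G13380 were too dim to be tested.

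AT1G48660 was bright in ga1-5 alone. It was at 5 to 93 in Col-0 mock, 9 to 191 in det2-1 mock and 861 to 1418 in ga1-5 mock. Of all tested probe sets 22.5% were higher in ga1-5 mock than in Col-0 mock over the mean of the times. Over all 12 ga1-5 arrays, GA3-treated ones included, the signal was 787 to 1418. The probe set passed the filter on dim signal only through the ga1-5 arrays, so no fold change or test against the other genotypes is given.

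Elsewhere in the pathway few genes could be followed. Of 13 listed genes of other auxin inactivation and conjugate hydrolysis 3 were tested, and none was called under IAA. UGT74D1, a glucosyltransferase gene with activity on auxins, was higher in ga1-5 than in Col-0 mock by 1.32 (SE 0.13, limma adjusted p = 5.83e-11). Over the mean of the 3 times 22.5% of tested probe sets were higher there. AT1G14130, placed on that list by locus, rose by 1.91, 2.53 and 2.37 under MJ at the 3 times (SE 0.15, limma adjusted p = 2.07e-12, 2.6e-16 and 1.74e-15), and AT1G14120 by 2.59 and 3.63 at 1 h and 3 h (adjusted p = 0.00391 and 2.6e-05). Under MJ 1.81% of tested probe sets were called in either direction at 30 min, and 3.5% and 3.87% rose at 1 h and 3 h. Of 15 genes of auxin synthesis YUC2 and YUC6 were tested, and neither was called under any hormone.

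Of 28 Aux/IAA repressor genes, whose proteins restrain auxin response factors, 6 were tested. Under IAA 1 rose at 30 min and 2 at 1 h and 3 h. The shares of all tested probe sets that rose were 0.475%, 0.724% and 1.72%. IAA29 gave 168 and 180 in mock and 880 and 601 with IAA at 30 min, and 330 and 237 against 5099 and 5064 at 3 h. IAA30 gave 87 and 200 against 1300 and 1307 at 3 h. Outside the IAA groups it was at 62 to 394, so it passed the filter on dim signal through IAA arrays. Its place in these counts is therefore no separate result. IAA30 also rose under ABA at 3 h (1.03, limma adjusted p = 0.0192), as did 10.1% of tested probe sets. IAA29 was there at -0.64 without a call. IAA18, IAA20, IAA33 and IAA34 had no call over the IAA time course (adjusted p = 0.767, 1, 1 and 0.184). No gene of the lists of auxin transport (14), auxin perception (6) and auxin response factors (12) had a probe set naming it here.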

How the data were processed

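Total RNA of whole seedlings was hybridised to ATH1 arrays. Per the submitters' processing notes, MAS5 was used; the deposited values are signal intensities on a linear scale. The members and gene lists were chosen with earlier results of these data known. Each array was scaled to a 2% trimmed mean of 1156, control probe sets left out, because deposited trimmed means deviated from their median by up to 157%, above a tolerance of 10%. On Col-0 IAA 30 min replicate 2, 1973 probe sets with impossible intensities were treated as missing (1456 tested, GH3.3 among them). From the scaled values log2(signal + 55) was computed, 55 being 10% of the median deposited signal. A probe set was tested where it exceeded its array's 40th percentile on at least 2 arrays. Group means were estimated jointly from the 72 arrays in limma 3.58.1 (R 4.3.3), leaving 36 residual degrees of freedom, with variances moderated by eBayes along an intensity trend, to give moderated t and F tests with Benjamini-Hochberg adjustment at 0.05. The code was tested on simulated data.

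Named genes were the 4 genes, the tested GH3 family loci, up to 4 genes of every list with the smallest adjusted p over the IAA time course, and for each of the 4 genes the 5 others that name 1 gene with the highest correlation over 36 group means. The remaining tested list genes were named after their values were seen. Probe sets were named through the platform annotation (13513 with 1 gene, 503 with several, 8730 unnamed here), with 13436 symbols updated through the Entrez identifier. Same-numbered treated and mock arrays deviated together at all 3 times for ABA (lowest correlation 0.135), for BL in det2-1 (0.145), for IAA (0.269), for GA3 in Col-0 (0.273) and for zeatin (0.317), which were taken as paired from these data. The other treatments also had positive correlations, the lowest being 0.0701 for MJ, 0.054 for GA3 in ga1-5, 0.0373 for BL in Col-0 and 0.0175 for ACC. The division is therefore loose. The main fit held no replicate block for any treatment. Replicate arrays correlated at 0.936 to 0.979. Alternatives were other scalings (deposited values, array medians, quantile normalization), pseudocounts of 2% and 50% of the median signal, other filters, no intensity trend, only the arrays of the sets compared, a replicate block and leaving out each array.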

Additional observations from a re-analysis of the deposited data

Results flagged for a closer look

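The responses of 3 genes differed between times by a test of the difference itself. Under IAA the log2 change at 3 h exceeded that at 30 min by 1.62 for GH3.3 (limma adjusted p = 0.0392), where 1 treated array stands for 30 min, and by 2.25 for WES1 (adjusted p = 1.06e-05). Under ABA the change of GH3.3 at 3 h exceeded that at 1 h by 2.79 (adjusted p = 4.88e-07) and that at 30 min by 3.00 (adjusted p = 3.9e-08). WES1 under ABA was higher at 3 h than at 30 min by 1.28 (adjusted p = 0.00222), and GH3.17 differed by -0.89 (adjusted p = 0.0268). The tests under ABA were added after values had been seen. Several of these calls ended under other settings: that of GH3.3 under IAA under 7 of 10, that of WES1 under IAA on the deposited scale (adjusted p = 0.0672), that of WES1 under ABA on the deposited scale (0.191) and without ABA 30 min replicate 2 (0.0573), and that of GH3.17 under 3 scalings and without any one of 5 arrays (0.0506 to 0.31). Time and set cannot be told apart.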

How the results depend on the processing

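Of the counts of called genes among the 4, those under IAA at 1 h and 3 h, ABA at 3 h and MJ at 1 h stayed within 1.5 times of the count given under all alternatives. That bound lets 1 gene drop out, so these counts were not all unchanged. On the deposited scale GH3.1 lost its call under IAA at 1 h, GH3.17 under ABA at 3 h and WES1 under MJ at 1 h. On the deposited scale the count was 1 under IAA at 30 min, 0 under ABA at 1 h, 1 under MJ at 3 h, 0 under ACC at 3 h and 1 between the mutants' mock means. With medians it was 0 under ABA at 1 h, 1 under MJ at 3 h and 1 under BL in Col-0 at 1 h (WES1), and with quantiles 1 under MJ at 3 h and 1 between the mutants. The 50% pseudocount gave 1 under MJ at 3 h, and the arrays of the set alone 0 under ACC at 3 h. Leaving out 1 array gave 0 to 0 under ABA at 1 h, 0 to 2 under MJ at 3 h, 0 to 1 under ACC at 3 h and 1 to 2 between the mutants. With the replicate block 1 gene was called under GA3 in Col-0 at 3 h, 1 under GA3 in ga1-5 at 1 h and at 3 h (GH3.3, adjusted p = 0.0316 and 0.0181), and 2 under ACC at 3 h (GH3.3, 0.017). WES1 under MJ at 3 h was also called with the block (0.0363). Only the GA3 result in Col-0 and that of GH3.1 under IAA at 30 min lie among the paired treatments.

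On the deposited scale the mock comparisons with Col-0 turned for several genes, whose arrays there keep a difference of about 1 log2 unit over all probe sets. In ga1-5 GH3.3 was at 0.71 at 30 min, 0.77 at 3 h and 0.67 over the times, WES1 at 1.25 at 3 h and GH3.1 at 0.62 over the times. In det2-1 GH3.3 was at 0.11 at 30 min and 0.34 over the times, WES1 at 1.01 at 3 h, and GH3.17 at 0.49, 0.01 and 0.43 at the single times and 0.31 over them. GH3.1, which reached as low as the 8.5th percentile of an array, had the largest SE of the 4 genes (0.47 for a change against mock).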
